A study of Mus musculus with 22 samples.

Results

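Obstructed kidneys of C57BL/6 mice were compared at 2 days and at 1 day after ligation of the left ureter, the operation that blocks urine outflow from that kidney. The comparison rests on the 6 arrays whose labels give an obstructed kidney at these days, 3 at day 1 (S38L, S02L and S05L) and 3 at day 2 (S18L, S30L and S04L), out of 22 arrays in the series. Each array set kidney RNA, in Cy5, against the same universal mouse reference RNA, in Cy3, and a value below is the log2 ratio of kidney over reference, so that a difference of 1 is a doubling. Sham mice, whose ureter was freed and not tied, gave 2 replicates at day 1 (S06R and S03, the mean of 2 arrays of that number) and 2 at day 2 (S08L and S39R). The letters L and R in the names are not explained in the labels. The obstructed arrays are all L and the sham arrays of both letters, and whether this affects differences from sham was not tested. Arrays of days 5 and 9 entered the estimate of the spread. Nothing in the labels says that each array came from a mouse of its own, so the p-values measure the spread between these samples. The question was which genes of the first day fade and which start between day 1 and day 2. Values of single arrays are given in the order in which the arrays are named here.

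Ureteral obstruction raises pressure in the tubules and stretches and injures their cells. Injured cells switch on immediate early genes, which encode transcription factors made within minutes to hours of a stimulus, and stress genes that handle oxidants, metals and misfolded proteins. Tubular cells may then re-enter the cell cycle, monocytes arrive and become macrophages, and fibroblasts and pericytes of the interstitium take on a contractile, collagen-making state called the myofibroblast. Loss of tubular transporters and deposition of matrix follow, which makes the operation a standard model of kidney fibrosis.

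Between 37663 and 39300 of the 45220 spots had a measured ratio on the 6 arrays. Of the 12 markers of kidney cells, 11 could be tested, and all 11 lay above the reference on all 6 arrays. The Pearson correlation across 16129 genes, which are not independent replicates, was 0.937 to 0.964 within day 1, 0.961 to 0.979 within day 2 and 0.920 to 0.955 between the days. Xist, the RNA that silences an X chromosome in females, stood at 2.05, -6.13 and 1.40 on the day 1 arrays and at -6.26, -5.66 and -6.34 on those of day 2. The Y-linked gene Eif2s3y stood at -7.78, 2.27 and -7.67 and at 2.33, 1.71 and 2.55. S38L and S05L at day 1 therefore carried the pattern of female RNA and the other 4 that of male RNA, while the labels do not give the sex. In sham kidneys both day 1 replicates had high Xist (1.88 and 1.83) and both of day 2 low Xist (-4.73 and -4.43). Day and sex were thus partly confounded in obstructed kidneys and cannot be told apart in sham kidneys. The main gene groups below are given also with Xist above the reference as a term of the fit (the Xist term) and without S38L and S05L, which leaves 1 array at day 1, assumed to vary like the other groups. Both checks were added after the data were seen. The image folder named in the labels, which could mark a batch, was the same for all 6 arrays.

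Of 17039 genes tested with limma, 1138 differed between the days at an adjusted p under 0.05 (Benjamini-Hochberg over all genes), or 6.68%. At day 2, 645 genes (3.79%) were higher and 493 (2.89%) lower, of which 246 and 85 by at least 2-fold. At an unadjusted p under 0.05, 2143 of the 17039 genes were higher and 1719 lower. Counts for gene lists below are to be read beside these shares and counts. The fit took its spread from all 21 replicates of the series. Fitted on the 6 arrays alone, 118 genes passed, 104 higher and 14 lower. The median difference over all genes was 0.02 on the log2 scale. Under the Xist term 352 genes rose (2.07%) and 329 fell (1.93%), and 532 of the 1138 changed genes were among these 681. Without S38L and S05L 992 rose (5.82%) and 750 fell (4.40%), among them 626 of the 1138. All 1138 kept their direction under both checks. For 635 of the rises and 485 of the falls the arrays of the days did not overlap, and the share over all genes was not counted. Low p-values and separate arrays come from the same values, so these counts are not further support. The direction of genes without overlap could not turn when arrays were left out, so for them that check of direction was fixed in advance. Without S02L the count of changed genes was 576, without S05L 565, without S18L 303, without S30L 291 and without S04L 559, against 1536 without S38L. Without S18L 145 genes rose and 158 fell, and without S30L 176 rose and 115 fell. List counts below with an array left out are to be read beside these.

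No gene passed the limma test between day 1 and day 2 in sham kidneys, where 618 had an unadjusted p under 0.05 and the smallest adjusted p was 0.672. None passed the test that the change in obstructed kidneys differed from that in sham kidneys, with 1977 at an unadjusted p under 0.05 and a smallest adjusted p of 0.134. Sham kidneys had 2 replicates a day, and the median standard error of this difference was 0.295 on the log2 scale, against 0.187 for the obstructed kidneys alone. The changes below are therefore differences between obstructed kidneys of day 2 and of day 1, where day and sex are partly confounded. They were not shown to differ from those of sham kidneys. The 0 count in sham kidneys depended on single replicates, as some genes passed without S03, S06R or S39R. Each of these fits left 1 sham replicate at a day. The test of the difference still gave 0 genes when S38L, S02L, S05L, S18L, S30L or S04L alone was left out. Some genes passed it with S38L and S05L both left out, a fit with 1 obstructed array at day 1.

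**Figure D1:**
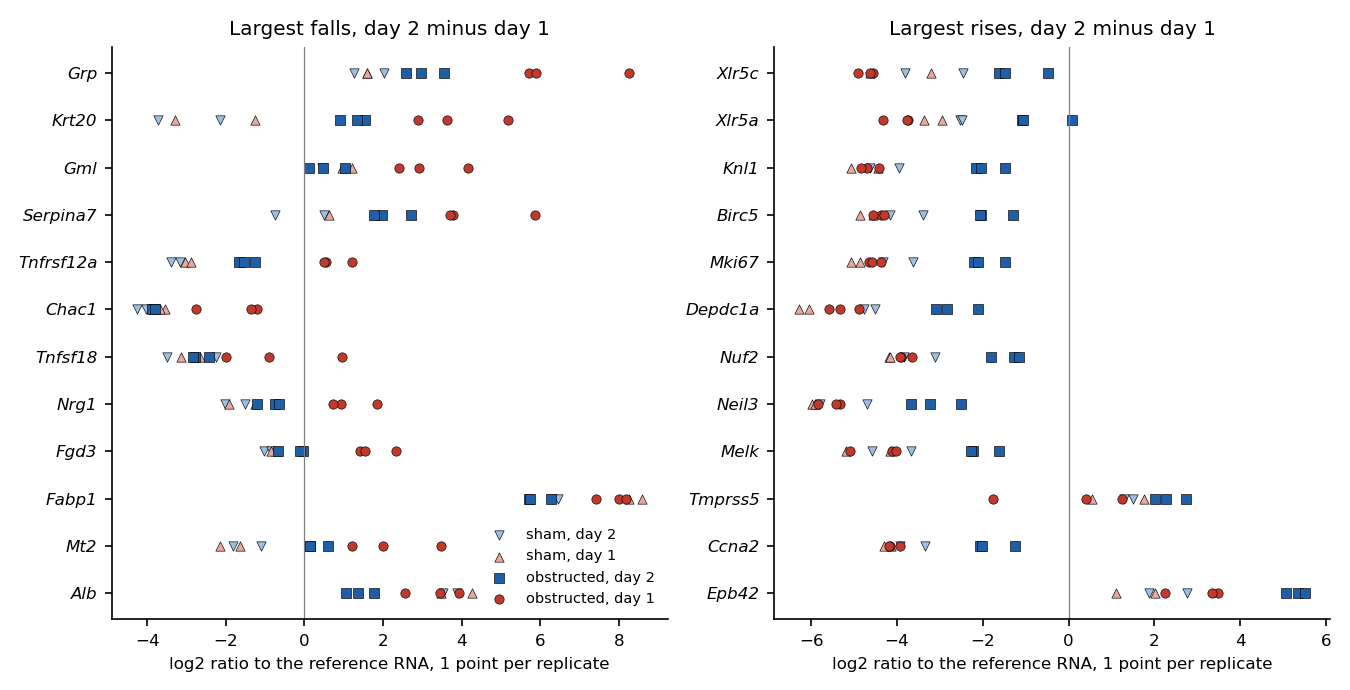
The 12 genes with the largest falls (left) and the 12 with the largest rises (right) between day 1 and day 2 in obstructed kidney. Each point is 1 replicate, and the horizontal axis is the log2 ratio to the reference RNA; circles are obstructed kidneys of day 1, squares those of day 2, and triangles sham kidneys. Points of the 2 days do not overlap for any of these genes, which were chosen for that. The highest day 1 value of a mitotic gene shown is that of Nuf2, -3.64.

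Several immediate early genes faded. Of 30 measured, 11 fell and 0 rose, 24 had a lower value at an unadjusted p under 0.05, and the median difference was -0.87, against 0.02 over all genes. Atf3, a stress-induced transcription factor of the CREB family, stood at 0.18, 0.26 and 1.66 at day 1 and at -0.65, -1.27 and -1.07 at day 2. The arrays of the days did not overlap, with S05L the highest, and Atf3 fell by 1.70 (SE 0.32, adjusted p = 0.0102, limma). Maff, a small MAF partner of basic leucine zipper factors, stood at -0.84, -0.09 and 0.43 and then at -1.75, -1.82 and -1.94. It fell by 1.67 (SE 0.29, adjusted p = 0.00742), and S38L was the lowest of day 1. Both Atf3 and Maff remained called without each of the 6 arrays in turn and with the Xist term (adjusted p = 0.0349 and 0.0230).

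Fos, the partner of Jun in the AP-1 factor, stood at -2.44, -2.51 and -2.03 at day 1 and at -3.57, -4.11 and -3.95 at day 2. Every day 2 array was more than 1 log2 unit below every day 1 array, and Fos fell by 1.55 (SE 0.43, adjusted p = 0.0446). Its call was lost without any 1 of the 6 arrays, with adjusted p-values of 0.0591 without S38L to 0.134 without S30L, and with the Xist term (adjusted p = 0.129). Egr1, a zinc finger factor of the first wave, stood at -1.69, -1.84 and -0.97 and then at -2.87, -2.96 and -2.79. It fell by 1.38 (SE 0.37, adjusted p = 0.0390), a call kept without S38L only, and had an adjusted p of 0.129 with the Xist term. Myc, which drives growth and ribosome production, fell by 1.20 (SE 0.25, adjusted p = 0.0141) from -2.02, -1.90 and -1.02 to -2.63, -3.02 and -2.89. Its call held with the Xist term (adjusted p = 0.0487) and was lost without S30L (0.0610). Klf6, a Krüppel-like factor induced by injury, fell by 0.93 (SE 0.20, adjusted p = 0.0180), a call lost without S05L or S30L (up to 0.0713) and with the Xist term (0.0589).

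At day 2 these factors were still above sham kidneys. Against sham kidneys of the same day, which share the obstructed arrays with the comparison of days, Fos was 3.59 higher at day 1 (adjusted p = 0.000207) and 2.33 higher at day 2 (0.00484). Egr1 was 2.91 higher at day 1 (adjusted p = 0.000330) and 1.99 at day 2 (0.00496), and Atf3 was 3.27 higher at day 1 (5.03e-05) and 1.73 at day 2 (0.00494). Under the Xist term 3 members of the list fell and without S38L and S05L 8 did. The count was 4 without S02L, S18L or S04L, 3 without S05L, 2 without S30L, 18 without S38L, 21 with quantile normalization in place of the subtraction of array medians, and 1 when the 6 arrays were fitted alone.

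**Figure D2:**
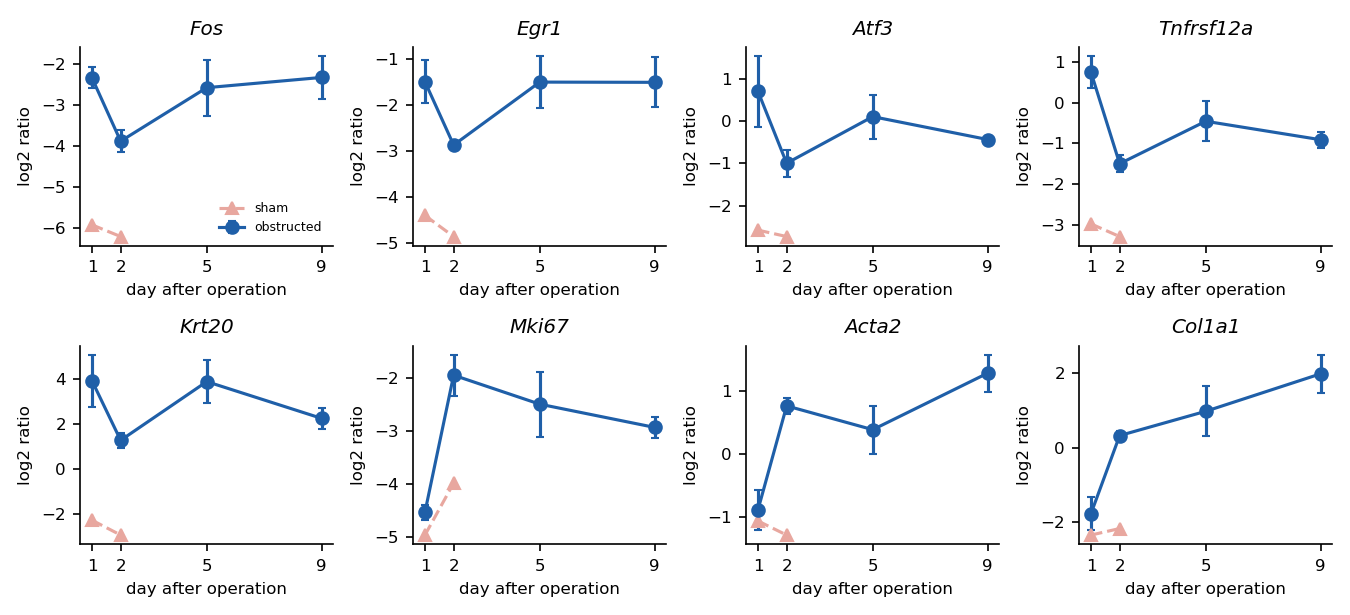
Group means of 8 genes in obstructed kidney at days 1, 2, 5 and 9 (circles, bars are the SD, n = 3, 3, 3 and 4) and in sham kidney at days 1 and 2 (triangles, mean of 2 replicates). The vertical axis is the log2 ratio to the reference RNA. Fos, Egr1, Atf3, Tnfrsf12a and Krt20 have their lowest obstructed mean at day 2, and Mki67 its highest.

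A few genes of acute tubular injury changed. Of 30 on the list, 5 fell (16.7%) and 1 rose (3.33%), against 2.89% and 3.79% of all genes, with a median of -0.37. Tnfrsf12a, the receptor of the cytokine TWEAK, had the lowest adjusted p: it stood at 0.54, 0.50 and 1.20 at day 1 and at -1.27, -1.67 and -1.55 at day 2, and fell by 2.24 (SE 0.22, adjusted p = 0.000344), or 4.73-fold. Day 1 and day 2 arrays were well apart, and sham replicates lay lower still, between -3.39 and -2.90. The call held with the Xist term (adjusted p = 0.00223), without S38L and S05L (0.00152) and without each array in turn. Krt20, a keratin of the urothelium that injured tubules also make, stood at 2.90, 5.17 and 3.64 and then at 1.54, 1.34 and 0.90. S02L was the highest, and Krt20 fell by 2.64 (SE 0.68, adjusted p = 0.0326), a call kept without S38L but lost without any 1 of the other arrays (up to 0.118 without S02L). Hbegf, a membrane-bound ligand of the EGF receptor, fell by 1.44 (SE 0.31, adjusted p = 0.0166), from 1.10, 0.46 and 2.12 to 0.12, -0.45 and -0.29, with the call lost without S30L (0.0659) and without S38L and S05L (0.146). Lgals3, the lectin galectin-3, fell by 0.59 (adjusted p = 0.0338) and Plaur, the urokinase receptor, fell by 0.999, with an adjusted p just under the threshold.

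Vcam1, an adhesion molecule of endothelium and of tubular cells that fail to recover, was the member that rose, from -2.72, -2.25 and -1.86 to -0.30, -0.22 and -0.88. All day 2 arrays were above those of day 1, and the mean rise was 1.81 (SE 0.33, adjusted p = 0.00951), but the 3 probes disagreed, with differences from -0.30 to 3.71. Fitted with the Xist term 4 members of the list fell and 1 rose, and without S38L and S05L 3 fell and 1 rose. The count of falls was 6 without S38L, 4 without S02L, 2 without S18L, S05L or S04L and 1 without S30L.

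The classical injury markers did not pass. Lcn2, the iron-siderophore-binding protein NGAL, stood at 4.0, 4.76 and 4.2 at day 1 and at 3.32, 2.98 and 3.71 at day 2. The arrays did not overlap, and the difference of -0.98 (SE 0.43) had an adjusted p of 0.186. Havcr1, the tubular injury molecule KIM-1, was at 4.82, 3.99 and 3.83 and then at 4.49, 4.58 and 3.50, a difference of -0.02 (SE 0.46, adjusted p = 0.986). The days overlapped for Havcr1, and both days lay 2.09 and 2.01 above sham kidneys (adjusted p = 0.0121 and 0.0168). Egf, a product of the thick limb and distal tubule that falls in kidney injury, differed by 0.31 (SE 0.21, adjusted p = 0.408), at 1.68 below sham at day 1 and 1.33 below at day 2. The phosphate transporter Slc34a1 differed by -0.05 (SE 0.15, adjusted p = 0.897).

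Among the largest falls, Grp, which encodes gastrin-releasing peptide, stood at 5.72, 8.25 and 5.90 at day 1 and at 2.59, 2.97 and 3.56 at day 2. S02L was the highest of day 1, the sham replicates lay between 1.25 and 2.02, and Grp fell by 3.58 (SE 0.85, adjusted p = 0.0265), or 11.9-fold. The call was lost without S02L, S18L, S30L or S04L (up to 0.0950) and with the Xist term (0.0838). Gml, a GPI-anchored protein of the LY6 family, stood at 2.40, 4.17 and 2.91 and then at 0.11, 1.04 and 0.47. It fell by 2.62 (SE 0.44, adjusted p = 0.00955), after lying 2.09 above sham kidneys at day 1 (adjusted p = 0.0128). At day 2 only S39R of the sham replicates had a value for it, 0.45. Nrg1, a ligand of the ERBB3 and ERBB4 receptors, stood at 0.92, 0.73 and 1.85 and then at -0.75, -0.66 and -1.20. It fell by 2.04 (SE 0.32, adjusted p = 0.00498), and its 5 probes gave falls of 1.65 to 2.54. Fgd3, an activator of the small GTPase CDC42, fell by 2.04 (SE 0.23, adjusted p = 0.000893), from 1.41, 1.53 and 2.34 to -0.03, -0.68 and -0.11. Calls of Gml, Nrg1 and Fgd3 held with the Xist term, without S38L and S05L and without each array in turn.

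Serpina7, the thyroxine-binding globulin, fell by 2.30 (SE 0.60, adjusted p = 0.0348), from 3.79, 5.86 and 3.70 to 1.97, 1.76 and 2.71, and Tnfsf18, the ligand of the receptor GITR, by 2.04 (SE 0.58, adjusted p = 0.0484). Both were lost with the Xist term (adjusted p = 0.0604 and 0.114). The Serpina7 call was also lost without S02L, S18L, S30L or S04L (up to 0.123), and that of Tnfsf18 without any array but S02L (up to 0.158). In sham kidneys Serpina7 differed by -1.32 between the days and Tnfsf18 by 0.03, neither of them called. Cdkn1a, the cell cycle inhibitor p21, stood at -1.15, 0.96 and -0.22 and then at -1.56, -1.87 and -1.88. Its 10 probes gave falls of 1.60 to 1.67, the mean fall was 1.63 (SE 0.38, adjusted p = 0.0229), and S02L was far above the others. The call held with the Xist term (adjusted p = 0.0270) and without S38L, but not without any 1 of the other arrays (up to 0.0720). Gadd45a, a DNA damage gene, fell by 1.12 (SE 0.22, adjusted p = 0.0113), a call lost without S30L (0.0528).

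Of the growth factors and their receptors, 3 of 30 fell and 2 rose, against 3 and 1 with the Xist term and 3 and 2 without S38L and S05L. Egfr, the EGF receptor, was measured by 24 probes and fell by 0.60 (SE 0.12, adjusted p = 0.0122), from 0.83, 1.28 and 1.18 to 0.54, 0.53 and 0.44. The probes disagreed in size, with differences from -1.49 to -0.22, and many did not pass by themselves. Nrg1, Hbegf and Egfr were the 3 members that fell. The falls were 10.0% of the list and the rises 6.67%, against 2.89% and 3.79% of all genes. Igf1, insulin-like growth factor 1, rose by 1.15 (SE 0.28, adjusted p = 0.0281), from -0.46, -1.68 and -0.67 to 0.59, 0.22 and -0.17. Its call held with the Xist term (0.0254) and was lost without S02L, S18L or S30L (up to 0.117). Angpt1, a ligand of the endothelial receptor TIE2, was the other that rose, by 1.24 (adjusted p = 0.0287), and without S02L, S18L or S30L none of the 30 rose.

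Some genes of the oxidant response fell. Of 30 targets of NRF2 and metallothioneins, 13 fell and 0 rose, 20 had a lower value at an unadjusted p under 0.05, and the median difference was -0.73. Txnrd1, the cytosolic thioredoxin reductase, stood at -0.27, 0.82 and 0.35 at day 1 and at -0.88, -1.08 and -1.04 at day 2, and fell by 1.30 (SE 0.20, adjusted p = 0.00459). Srxn1, sulfiredoxin, stood at 0.79, 2.03 and 1.19 and then at -0.12, -0.09 and -0.32, and fell by 1.52 (SE 0.27, adjusted p = 0.00951). S02L was the highest array for both, and at day 2 both lay within 0.15 of sham kidneys on the log2 scale (differences of -0.14 and 0.03, adjusted p = 0.734 and 0.965), after 1.16 and 1.39 above them at day 1.

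The glutathione transferases Gsta3 and Gsta2 were near sham at day 1 (differences of -0.17 and -0.10, adjusted p = 0.531 and 0.717) and lay below it at day 2 (-0.73 and -0.66, adjusted p = 0.00746 and 0.00654). Gsta3 fell by 0.86 (SE 0.15, adjusted p = 0.00730) and Gsta2 by 0.72 (SE 0.13, adjusted p = 0.00948), and as members of a family with similar sequences their probes may share signal. Mt2, a metallothionein that binds zinc and copper, stood at 1.21, 3.48 and 2.01 and then at 0.61, 0.15 and 0.15. It fell by 1.93 (SE 0.50, adjusted p = 0.0336), with a call kept without S38L only (up to 0.114 without S02L) and with the Xist term (0.0453). Under the Xist term 11 members of the list fell and without S38L and S05L 15 did. The count was 7 without S02L, 8 without S18L, S05L or S04L, 5 without S30L, 16 without S38L and 2 with the 6 arrays fitted alone.

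In the unfolded protein and amino acid stress list, 4 of 22 fell and 0 rose, with a median of -0.10 (0.04 with the Xist term). Chac1, which degrades glutathione and is a target of the factor ATF4, stood at -2.77, -1.21 and -1.35 and then at -3.82, -3.88 and -3.80. It fell by 2.06 (SE 0.31, adjusted p = 0.00360), or 4.16-fold, and the call held with the Xist term (0.0141) and without each array in turn. Atf4 itself fell by 0.67 (SE 0.14, adjusted p = 0.0166), from -1.42, -0.95 and -1.02 to -1.75, -1.63 and -2.03. Its call held with the Xist term (0.0425) and was lost without S02L, S18L, S05L or S04L (up to 0.0584). Trib3, a pseudokinase and ATF4 target, fell by 0.83 (SE 0.20, adjusted p = 0.0276), and Dnajb9, a chaperone of the endoplasmic reticulum, by 0.68 (SE 0.20, adjusted p = 0.0489). Both lost the call with the Xist term (0.0661 and 0.0588). Without S02L or S04L 1 member fell, without S18L or S05L 2 did, with the Xist term 2 did and without S38L and S05L 5 did.

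Some factors of ribosome production also fell. Of 33 nucleolar factors that build ribosomes, 10 fell and 0 rose, 24 had a lower value at an unadjusted p under 0.05, and the median was -0.47. Ddx21, an RNA helicase of the nucleolus, stood at -0.33, -0.37 and -0.07 at day 1 and at -0.87, -0.88 and -1.07 at day 2, and fell by 0.68 (SE 0.11, adjusted p = 0.00713). Pno1, an assembly factor of the small subunit, fell by 0.61 (SE 0.12, adjusted p = 0.0104), from 0.03, -0.01 and 0.03 to -0.45, -0.68 and -0.65. Arrays of the days did not overlap for either. At day 1 they lay 1.11 and 0.48 above sham (adjusted p = 6.40e-05 and 0.0190) and at day 2 0.26 above and 0.06 below (0.181 and 0.826). Of 41 structural proteins of the cytosolic ribosome, 1 rose and 0 fell (4 higher and 2 lower at an unadjusted p under 0.05), with a median of 0.06. The gene that rose was Rpl22 (0.39, SE 0.10, adjusted p = 0.0353), a call lost without any 1 array other than S38L. Of the 33, 3 fell with the Xist term, as without S38L and S05L. The count was 5 without S18L or S04L, 4 without S05L, 3 without S30L and 11 without S02L. Scaling moved it too, to 17 with no subtraction of array medians and 19 with quantile normalization, and it was 0 with the 6 arrays fitted alone.

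Of 25 genes of translation and tRNA charging, 6 fell and 0 rose, with a median of -0.31. Eif1a, a translation initiation factor, fell by 0.81 (SE 0.15, adjusted p = 0.00959), from -0.18, 0.09 and 0.32 to -0.71, -0.82 and -0.66, and the tryptophan tRNA ligase Wars fell by 0.60 (SE 0.12, adjusted p = 0.0131). Both calls held with the Xist term (0.0300 and 0.0224) and without each array in turn. Of 31 proteasome subunits, 3 fell and 0 rose, with a median of -0.21 and 13 lower at an unadjusted p under 0.05. Psmb5, a catalytic subunit, fell by 0.61 (SE 0.10, adjusted p = 0.00742), from 0.89, 0.87 and 0.86 to 0.30, 0.16 and 0.34. Counts of falls ranged from 2 without S02L, S18L or S30L to 6 without S38L for translation, and from 1 without S18L, S30L or S04L to 4 without S38L for the proteasome. They were 3 and 1 with the Xist term and 6 and 2 without S38L and S05L.

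**Figure D3:**
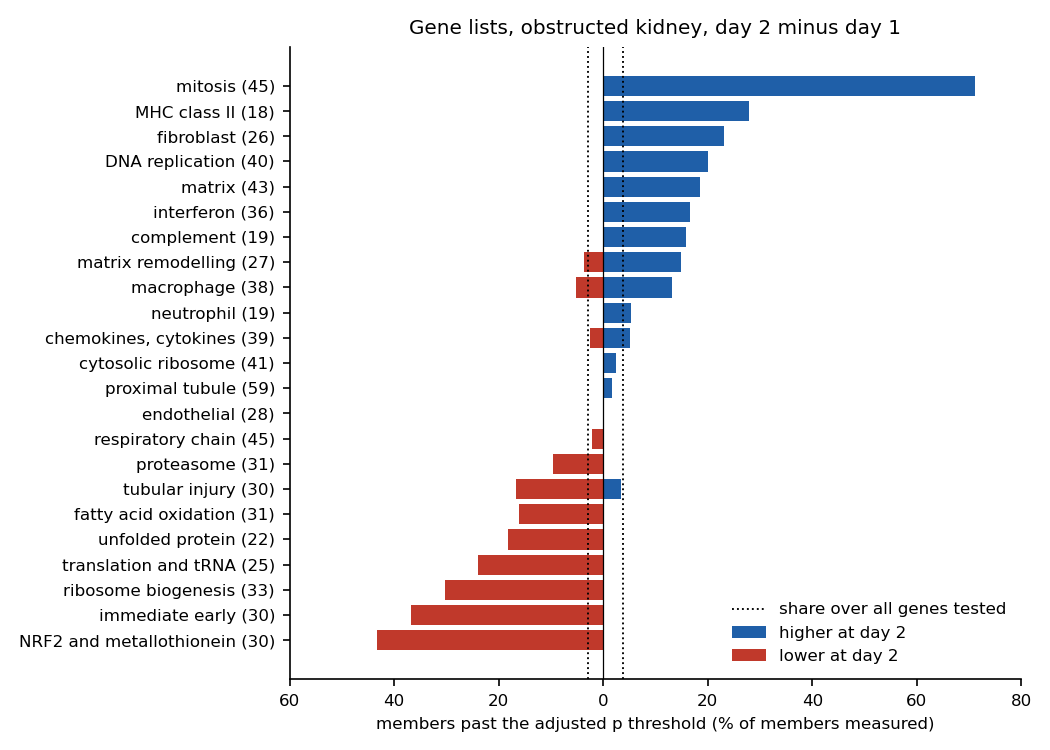
Share of the measured members of each gene list (number in brackets) that passed the adjusted p threshold between day 1 and day 2 in obstructed kidney. Bars to the right are members higher at day 2 and bars to the left members lower, in percent of members measured. Dotted lines are the shares over all genes tested, 3.79% higher and 2.89% lower. Mitosis genes reach 71.1% higher, and the NRF2 and metallothionein list 43.3% lower.

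Genes of cell division started between day 1 and day 2. Of 45 mitosis genes measured, 32 rose and 0 fell, 43 were higher at an unadjusted p under 0.05, and the median rise was 1.76 against 0.02 over all genes. The median level of the list was -4.05, -3.85 and -3.83 at day 1 and -1.65, -2.23 and -2.28 at day 2, and -4.05, -4.30, -3.36 and -3.83 on the sham replicates S06R, S03, S08L and S39R. S18L was the highest array, and the day 1 arrays lay among the sham replicates. Both sham replicates of day 2 lay above both of day 1, and the median sham difference of the list was 0.49. The genes named in the next 2 paragraphs had sham differences of 0.084 (Racgap1) to 1.525 (Depdc1a), with 0.984 for Mki67. None of these was called in sham kidneys. In whole kidney, more dividing cells and more RNA per cell cannot be told apart.

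Mki67, which encodes the proliferation antigen Ki-67, stood at -4.65, -4.57 and -4.37 at day 1 and at -1.49, -2.21 and -2.12 at day 2. It rose by 2.59 (SE 0.60, adjusted p = 0.0229), or 6.03-fold, and kept its call without S38L only (up to 0.0905 without S18L). Nuf2, a kinetochore protein, stood at -3.90, -3.93 and -3.64 and then at -1.28, -1.81 and -1.15, and rose by 2.41 (SE 0.45, adjusted p = 0.00959). Racgap1, which organises the cleavage furrow, rose by 1.47 (SE 0.26, adjusted p = 0.00839), and the microtubule depolymerase Kif2c by 1.90 (SE 0.35, adjusted p = 0.00951). Calls of Nuf2, Racgap1 and Kif2c held without each array in turn and with the Xist term (adjusted p = 0.0279, 0.0224 and 0.0253). Spag5, a spindle protein, did so as well, with a rise of 1.53 (SE 0.28, adjusted p = 0.00955). At day 2 Nuf2, Racgap1 and Kif2c were 2.07, 1.27 and 1.65 above sham kidneys (adjusted p = 0.0119, 0.00825 and 0.0102, limma). Mki67 was 2.04 above them (0.0529). Spag5 differed from sham by -0.83 at day 1 (0.0850) and by 0.31 at day 2 (0.555).

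Knl1, a scaffold of the kinetochore, rose by 2.76 (SE 0.63, adjusted p = 0.0212), Birc5, the inhibitor of apoptosis survivin that also acts in mitosis, by 2.61 (SE 0.60, adjusted p = 0.0217) and Top2a, the DNA topoisomerase of dividing cells, by 2.09 (SE 0.44, adjusted p = 0.0146). Depdc1a, Melk, Neil3 and Ccna2, the last of which encodes cyclin A2, were among the 12 largest rises with 2.59, 2.38, 2.40 and 2.32. Of these 7, Depdc1a and Ccna2 kept their call with the Xist term (adjusted p = 0.0346 and 0.0357) and the others had 0.0514 to 0.143. The Neil3 call was lost without any 1 array (0.0563 to 0.155). Knl1, Birc5 and Melk were each called in 2 of the 6 fits with 1 array left out (up to 0.0851, 0.0894 and 0.102). Top2a was lost without S02L or S18L (up to 0.0698), and Depdc1a and Ccna2 without S18L (0.0617 and 0.0538). Cdk1, the kinase that drives entry into mitosis, differed by 0.30 (SE 0.19, adjusted p = 0.383), with 1 probe at 0.92 and the other at -0.32. The count of mitosis genes that rose was 10 with the Xist term and 9 without S38L and S05L, with medians of 1.29 and 1.66. With 1 array left out it was 7 without S18L, 16 without S30L, 17 without S05L, 19 without S02L, 21 without S04L and 22 without S38L. It was 23 with the 6 arrays fitted alone.

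Many promoters of these mitotic genes hold the same pair of short elements. The CCAAT box, which binds the factor NF-Y, and the cell cycle genes homology region (CHR), which binds the MuvB complex, are known to act together in genes of late cell cycle. RefSeq promoters (build GRCm38.p6), from 250 bases before to 50 after the annotated start, were matched to 13631 of the 17039 genes, and the first listed promoter of each was searched on both strands for CCAAT and for TTTGAA. Of 27 mitosis genes that rose and had a promoter, 21 held CCAAT (77.8%), 22 TTTGAA (81.5%) and 19 both (70.4%). Of the 9 mitosis genes with a promoter that did not pass, 6 held both (66.7%). Among all genes tested 38.5% held CCAAT, 14.0% TTTGAA and 5.58% both, and among all genes that rose 44.0%, 18.1% and 10.6%. A match is a run of letters, not a site shown to be bound. For contrast, TGACGTCA, the full cAMP response element (CRE), was found in 6.14% of the 391 promoters of genes that fell, 2.16% of the 509 of genes that rose and 2.68% of all. TGACTCA, the AP-1 element, was found in 4.35%, 2.36% and 4.2%, and CACGTG, the E-box, in 13.6%, 8.06% and 9.08%. The E2F letters TTTGGCGC or TTTCCCGC were found in 3.32%, 2.75% and 2.52%, and those of NF-kB in 0.256%, 0.196% and 0.271%.
The 4 promoters that follow show both elements in mitotic genes chosen for them after the values were seen, with CCAAT (or ATTGG on the other strand) and TTTGAA (or TTCAAA) in capitals. They belong to the mitotic kinase Plk1 (chr7:122159185-122159484, plus strand), cyclin B2, Ccnb2 (chr9:70421505-70421804, minus strand), Top2a (chr11:99024140-99024439, minus strand) and Ube2c, the ubiquitin-conjugating enzyme of the anaphase-promoting complex (chr2:164769679-164769978, plus strand). Each is written 5′ to 3′ on the strand of its gene.
Plk1: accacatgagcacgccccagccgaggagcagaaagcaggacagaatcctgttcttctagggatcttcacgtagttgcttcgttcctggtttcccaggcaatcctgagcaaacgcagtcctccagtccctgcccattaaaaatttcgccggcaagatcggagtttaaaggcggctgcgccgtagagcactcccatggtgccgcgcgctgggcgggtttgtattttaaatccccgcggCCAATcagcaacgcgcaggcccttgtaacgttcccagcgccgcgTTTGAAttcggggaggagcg
Ccnb2: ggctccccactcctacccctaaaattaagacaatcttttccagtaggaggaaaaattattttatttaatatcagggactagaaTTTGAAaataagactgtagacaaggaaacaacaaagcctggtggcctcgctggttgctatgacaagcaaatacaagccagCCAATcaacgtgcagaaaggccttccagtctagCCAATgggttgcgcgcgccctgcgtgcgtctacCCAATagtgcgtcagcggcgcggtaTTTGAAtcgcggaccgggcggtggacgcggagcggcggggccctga
Top2a: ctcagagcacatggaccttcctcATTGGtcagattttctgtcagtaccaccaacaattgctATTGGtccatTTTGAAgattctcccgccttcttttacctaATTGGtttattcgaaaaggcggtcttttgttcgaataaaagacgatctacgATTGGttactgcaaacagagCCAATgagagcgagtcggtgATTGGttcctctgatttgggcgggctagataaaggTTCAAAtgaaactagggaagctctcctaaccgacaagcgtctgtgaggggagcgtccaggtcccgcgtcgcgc
Ube2c: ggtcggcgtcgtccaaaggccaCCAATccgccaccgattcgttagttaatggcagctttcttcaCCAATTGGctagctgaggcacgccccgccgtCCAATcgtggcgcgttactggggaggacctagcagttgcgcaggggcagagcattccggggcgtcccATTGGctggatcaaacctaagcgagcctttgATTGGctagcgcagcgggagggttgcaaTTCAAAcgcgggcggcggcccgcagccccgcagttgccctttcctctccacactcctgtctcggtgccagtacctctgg
Btg2, an antiproliferative immediate early gene that fell by 0.99 (adjusted p = 0.0475), was the only one of 8 fallen immediate early genes with a promoter to hold the full CRE, and 5 of the 8 held CCAAT. Its promoter (chr1:134079106-134079405, minus strand) is shown with the CRE and the CCAAT boxes in capitals.
Btg2: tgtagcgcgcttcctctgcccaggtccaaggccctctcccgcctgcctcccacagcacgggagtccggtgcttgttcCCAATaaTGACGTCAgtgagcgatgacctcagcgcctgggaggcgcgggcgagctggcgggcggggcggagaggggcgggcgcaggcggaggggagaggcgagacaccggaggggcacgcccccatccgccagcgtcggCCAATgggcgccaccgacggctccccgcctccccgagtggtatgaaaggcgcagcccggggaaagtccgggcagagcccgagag

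Some DNA replication genes rose as well. Of 40 measured, 8 rose and 0 fell, 27 were higher at an unadjusted p under 0.05, and the median was 0.68. Gmnn, geminin, an inhibitor of repeated origin licensing, stood at -1.84, -2.24 and -2.28 and then at -1.07, -1.49 and -1.30, and rose by 0.83 (SE 0.15, adjusted p = 0.00915). Rrm1, a subunit of ribonucleotide reductase, rose by 0.95 (SE 0.19, adjusted p = 0.0126) and Tk1, thymidine kinase, by 1.48 (SE 0.34, adjusted p = 0.0217). Gmnn was called without each array in turn, Rrm1 was lost without S18L (0.0610), and Tk1 without S02L or S18L (0.0935) and with the Xist term (0.0705). Against sham kidneys Gmnn differed by -0.48 at day 1 and 0.37 at day 2 (adjusted p = 0.0551 and 0.144, limma). Tk1 differed by -0.67 and 0.84 (0.261 and 0.151), and Rrm1 by 0.06 and 1.06 (0.904 and 0.00416). Of 15 histone genes, which have close copies, 2 rose: H1f5 by 2.10 (SE 0.53, adjusted p = 0.0295) and H2ac4 by 1.98 (SE 0.52, adjusted p = 0.0362). Neither passed with the Xist term (0.0937 and 0.114) or without S02L, S18L, S30L or S04L. The replication count was 2 with the Xist term, 14 without S38L and S05L, 2 without S02L, 1 without S18L, 3 without S05L or S04L, 4 without S30L, 3 with quantile normalization and 0 with the 6 arrays fitted alone. Cdkn2c, an inhibitor of cyclin-dependent kinases, rose by 0.92 (SE 0.18, adjusted p = 0.0113), a call lost without S18L (0.0556). Its differences from sham kidneys were -0.52 at day 1 and 0.47 at day 2 (adjusted p = 0.0912 and 0.135, limma).

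Among called genes whose arrays did not overlap, the largest rises belonged to Xlr5c and Xlr5a, members of an X-linked family related to a protein of meiotic chromosomes. Xlr5c stood at -4.55, -4.62 and -4.91 at day 1 and at -1.62, -0.49 and -1.49 at day 2, and rose by 3.49 (SE 0.59, adjusted p = 0.00730), or 11.3-fold. Xlr5a stood at -3.74, -4.32 and -3.76 and then at -1.08, 0.07 and -1.06, and rose by 3.25 (SE 0.43, adjusted p = 0.00227). S30L was the highest for both, and the 3 day 1 arrays were all low. Both calls held with the Xist term (adjusted p = 0.00743 and 0.00223), without S38L and S05L and without each array. The copies of this family are nearly identical, and their probes may not tell them apart. Epb42, a protein of the red cell membrane, rose by 2.28 (SE 0.36, adjusted p = 0.00497), from 3.48, 2.24 and 3.33 to 5.06, 5.35 and 5.50, with its call kept under the same checks. Epb42 was already 1.45 above sham kidneys at day 1 (adjusted p = 0.0216, limma) and 2.99 above them at day 2 (0.000399). It was the only 1 of 8 erythroid genes to pass, and their median was 0.15. Tmprss5, a transmembrane serine protease, rose by 2.37 (SE 0.66, adjusted p = 0.0439) with S02L far below the other day 1 arrays (1.24, -1.76 and 0.40), and its adjusted p was 0.154 without S02L.

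**Figure D4:**
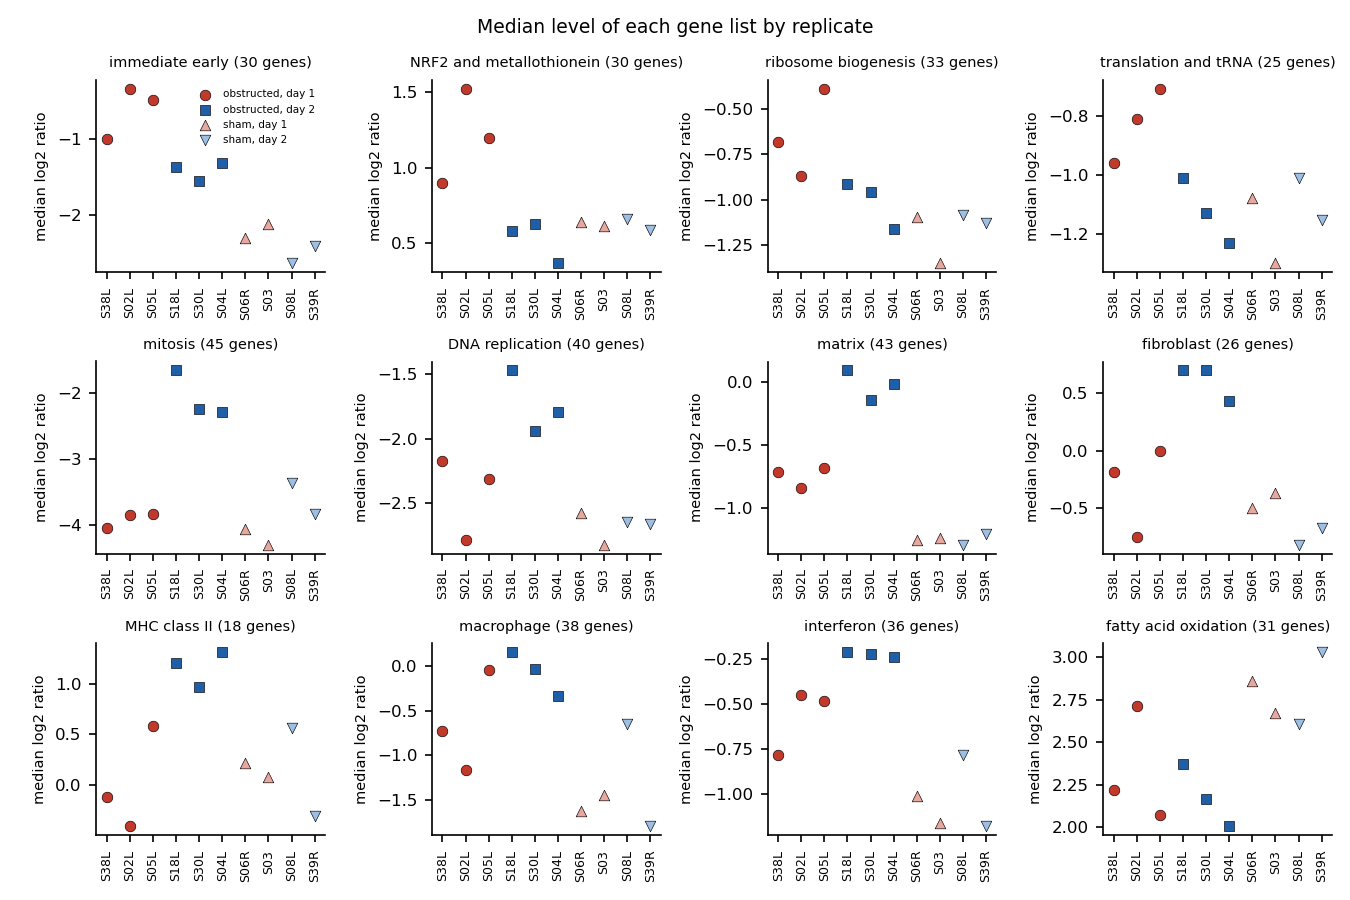
Median level of 12 gene lists on each replicate. The vertical axis is the median log2 ratio to the reference RNA over the measured members, and the axes differ between lists; the horizontal axis names the replicate. Circles are obstructed kidneys of day 1, squares those of day 2 and triangles sham kidneys. For the mitosis, DNA replication, matrix, fibroblast, MHC class II and interferon lists, all day 2 squares lie above all day 1 circles; for the immediate early, NRF2 and metallothionein, ribosome biogenesis and translation lists they lie below.

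Some matrix and myofibroblast genes rose. Of 43 matrix genes, 8 rose and 0 fell, 23 were higher at an unadjusted p under 0.05, and the median rise was 0.68. Acta2, alpha smooth muscle actin, the usual marker of myofibroblasts, stood at -0.76, -1.25 and -0.65 at day 1 and at 0.72, 0.91 and 0.67 at day 2. It rose by 1.65 (SE 0.24, adjusted p = 0.00278), or 3.14-fold, its 13 probes gave rises of 0.51 to 1.93, and the call held with the Xist term (0.00509), without S38L and S05L (0.00309) and without each array in turn. At day 1 it was 0.18 above sham kidneys (adjusted p = 0.715) and at day 2 2.05 above them (0.000327). Tpm2, a tropomyosin, rose by 1.36 (SE 0.26, adjusted p = 0.0105) from -0.85, -1.13 and -0.73 to 0.48, 0.48 and 0.43. Myl9, a myosin light chain of smooth muscle, rose by 1.87 (SE 0.37, adjusted p = 0.0115) from 0.80, -0.62 and 0.43 to 1.88, 2.20 and 2.14. Both were called without each array and with the Xist term (0.0203 and 0.0160). Tagln, another smooth muscle protein, rose by 1.31 (SE 0.29, adjusted p = 0.0192), a call lost without S02L, S18L or S30L (up to 0.0671).

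Col1a1, the main chain of type I collagen, stood at -1.44, -2.27 and -1.59 and then at 0.46, 0.26 and 0.26. It rose by 2.10 (SE 0.57, adjusted p = 0.0417), or 4.27-fold, and its 12 probes gave rises of 1.51 to 2.24. The arrays of the days were far apart, but the call was kept without S38L only (up to 0.126 without S02L), and the adjusted p was 0.101 with the Xist term. Col1a2 rose by 1.65 (SE 0.42, adjusted p = 0.0306), Col5a2 by 1.61 (SE 0.38, adjusted p = 0.0236) and Col5a1 by 1.12 (SE 0.27, adjusted p = 0.0249), with calls lost without S18L and S30L among others (up to 0.111, 0.0943 and 0.0902). Of these 3, Col5a1 kept its call with the Xist term (0.0481). Of 26 fibroblast genes, 6 rose and 0 fell, with 4 under the Xist term and 6 without S38L and S05L, and a median of 0.51. Of the matrix genes 2 rose with the Xist term, 6 without S38L and S05L (and 1 fell), 0 without S18L or S30L, 1 without S02L, 2 without S05L and 3 without S04L. The fibroblast count was 3 without S02L, S18L or S30L. With the 6 arrays fitted alone 2 matrix and 3 fibroblast genes rose.

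Of 27 matrix-remodelling genes, 4 rose (14.8%) and 1 fell (3.70%), against 3.79% and 2.89% of all genes. Mmp23, a matrix metalloproteinase, rose by 1.00 (SE 0.17, adjusted p = 0.00839), from -0.17, -0.73 and -0.27 to 0.58, 0.56 and 0.71, a call kept without each array. Timp2, an inhibitor of metalloproteinases, rose by 1.38 (SE 0.30, adjusted p = 0.0170), from -1.10, -2.32 and -1.98 to -0.47, -0.21 and -0.58, with its call kept under the Xist term (0.0221) and lost without S02L, S18L, S05L or S30L (up to 0.0659). Mmp2, gelatinase A, rose by 0.84 (SE 0.19, adjusted p = 0.0209) and Adam12 by 1.78 (SE 0.46, adjusted p = 0.0338), both lost with the Xist term (0.0557 and 0.0933). Against sham kidneys of the same day, Timp2 differed by -1.01 at day 1 (adjusted p = 0.0485, limma) and by 0.35 at day 2 (0.527). Mmp2 differed by -0.47 and 0.31 (0.154 and 0.364). Mmp23 differed by -0.32 and 0.66 (0.295 and 0.0343), and Adam12 by -0.065 and 1.89 (0.956 and 0.0226). The count of rises was 2 without S02L, S05L or S04L, 1 without S18L or S30L, 2 with the Xist term and 4 without S38L and S05L. Plaur was the member that fell. Ccn1, a matricellular protein and early target of the YAP pathway, went the other way and fell by 1.21 (SE 0.31, adjusted p = 0.0336), from -1.21, -1.22 and 0.02 to -1.61, -2.07 and -2.37, lost with the Xist term (0.111).

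Of 33 cytoskeletal genes, 3 rose (9.09%) and 2 fell (6.06%), against 3.79% and 2.89% of all genes, with a median of -0.02. The tubulins Tubb2a and Tuba1c fell by 0.84 (SE 0.11, adjusted p = 0.00227) and 1.11 (SE 0.16, adjusted p = 0.00274), the latter from 0.61, 0.91 and 0.91 to -0.11, -0.30 and -0.48. The actin regulators Cnn2, a calponin, and Tmsb4x, thymosin beta 4, rose by 1.18 (SE 0.29, adjusted p = 0.0271) and 0.82 (SE 0.22, adjusted p = 0.0422). Ckap4, which links the endoplasmic reticulum to microtubules, rose by 1.03 (adjusted p = 0.0444). Both tubulins were called without each array and with the Xist term (0.00247 each), and Cnn2 was lost without S02L, S18L, S30L or S04L and Tmsb4x without any 1 array but S38L. None of the 33 rose without S02L, S18L, S30L or S04L, 1 did without S05L and with the Xist term, and 5 did without S38L and S05L.

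A few macrophage markers rose. Of 38 macrophage genes, 5 rose and 2 fell, 17 were higher at an unadjusted p under 0.05, and the median was 0.72. Trem2, a lipid receptor of macrophages, stood at -3.14, -3.23 and -2.84 at day 1 and at -1.61, -1.73 and -2.26 at day 2. It rose by 1.20 (SE 0.19, adjusted p = 0.00571), with S04L the lowest of day 2, and its call held with the Xist term (0.0200) and without each array in turn. Msr1, a scavenger receptor, rose by 1.21 (SE 0.26, adjusted p = 0.0170) from -2.73, -2.52 and -2.01 to -1.0, -0.86 and -1.78, lost without S02L, S18L or S30L (up to 0.0748). Laptm5, a lysosomal protein of blood cells, rose by 1.11 (SE 0.25, adjusted p = 0.0205), lost without S02L, S18L, S30L or S04L (up to 0.0735). Ly6c1, whose product marks monocytes and also endothelium, fell by 0.93 (SE 0.19, adjusted p = 0.0136), from 1.91, 2.42 and 2.20 to 1.44, 1.27 and 1.04. The median level of the list overlapped between the days: -0.73, -1.16 and -0.05 at day 1 and 0.16, -0.03 and -0.33 at day 2. With the Xist term 2 rose, without S38L and S05L 8 did, 1 did without S02L, S18L or S30L, and 3 did without S04L. The falls numbered 1 under each of these. With the 6 arrays fitted alone no gene of the macrophage, MHC class II or interferon lists rose.

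Of 18 genes of MHC class II presentation, 5 rose and 0 fell, with a median of 0.63. H2-DMa, which loads peptide on class II molecules, stood at -0.14, -1.18 and 0.40 at day 1 and at 1.44, 1.45 and 1.40 at day 2. The day 2 arrays were close together and well above day 1, and H2-DMa rose by 1.73 (SE 0.29, adjusted p = 0.00730). Its partners H2-DMb2 and H2-DMb1, which are close copies, rose by 1.42 (SE 0.27, adjusted p = 0.0109) and 1.11 (SE 0.23, adjusted p = 0.0139). Cd74, the invariant chain, rose by 1.22 (SE 0.29, adjusted p = 0.0252), from -0.82, -0.76 and 0.00 to 0.58, 0.68 and 0.82. H2-DMa, H2-DMb2 and H2-DMb1 kept their calls with the Xist term (0.0189, 0.0279 and 0.0253), and Cd74 had 0.0661. Cd40, a costimulatory receptor, was the remaining gene that rose (0.78, adjusted p = 0.0387). The count was 3 with the Xist term, 5 without S38L and S05L, 3 without S38L, S02L, S18L or S04L, 2 without S30L and 7 without S05L.

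Of 19 complement genes, 3 rose and 0 fell. Cfp, properdin, which stabilises the alternative pathway convertase, rose by 1.41 (SE 0.21, adjusted p = 0.00316), from -0.63, -0.42 and -0.28 to 1.15, 1.04 and 0.69, and was called under all these checks. C3ar1, the C3a receptor, rose by 1.29 (SE 0.27, adjusted p = 0.0149), lost without S18L or S30L (up to 0.0698) and with the Xist term (0.0517). C1s1, a protease of the classical pathway, rose by 1.07 (SE 0.27, adjusted p = 0.0321), lost without any 1 array. Counts were 2 without S02L, S05L or S04L, 1 without S18L or S30L and with the Xist term, and 3 without S38L and S05L.

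Of 36 interferon-response genes, 6 rose and 0 fell, with a median of 0.31. Cxcl10, a chemokine for T cells, stood at 1.18, 0.46 and 1.94 at day 1 and at 2.29, 2.63 and 3.02 at day 2, and rose by 1.45 (SE 0.41, adjusted p = 0.0465). The immunoproteasome subunits Psmb9 and Psmb8 rose by 0.94 (SE 0.22, adjusted p = 0.0232) and 0.77 (SE 0.21, adjusted p = 0.0423), and Ifih1, a sensor of double-stranded RNA, by 0.62 (SE 0.16, adjusted p = 0.0328). Under the Xist term 0 of the 36 passed, and without S38L and S05L 6 rose and 1 fell. The count was 0 without S02L or S18L, 1 without S30L or S04L, 2 without S05L and 3 without S38L.

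Chemokines and cytokines of the first day were mixed. Of 39 on the list, 2 rose (5.13%) and 1 fell (2.56%), near the shares over all genes of 3.79% and 2.89%, with a median of 0.31. Il34, a ligand of the CSF1 receptor made by tubules, stood at 3.24, 4.22 and 3.16 and then at 2.36, 2.40 and 2.65, and fell by 1.07 (SE 0.27, adjusted p = 0.0321), lost without S02L, S18L, S30L or S04L (up to 0.107). Cxcl10 and Il18, a cytokine processed by the inflammasome (0.53, SE 0.15, adjusted p = 0.0451), were the members that rose, and the Il18 call was lost without any 1 array. Il6 stood at -1.20, -0.46 and 1.19 and then at -0.78, -1.02 and -2.51, a difference of -1.28 (SE 1.12, adjusted p = 0.552) with overlapping days. Cxcl1, a neutrophil chemokine, differed by -1.14 (SE 0.50, adjusted p = 0.186), and Ccl2, the monocyte chemokine, by 0.80 (SE 0.24, adjusted p = 0.0536), both with overlapping days. Against sham kidneys Il6 was 5.61 and 5.03 higher at day 1 and day 2 (adjusted p = 0.00645 and 0.0138), and Ccl2 0.90 and 2.09 higher (0.0285 and 0.000268). Without S05L Ccl2 passed (adjusted p = 0.0238), as it did without S04L. Without S02L, S18L or S30L none of the 39 rose, and without S38L and S05L 6 did. Of 19 neutrophil genes 1 rose (Lilrb4a, an inhibitory receptor also found on macrophages, by 0.85, adjusted p = 0.0485) and 0 fell, their median difference was 0.05, and the median level of the list was 0.57, 2.59 and 2.13 at day 1 and 2.09, 2.34 and 1.64 at day 2.

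Some genes of lipid metabolism fell. Of 31 genes of fatty acid oxidation and its control, 5 fell and 0 rose, with a median of -0.31. Cyp4a14, a fatty acid hydroxylase, stood at 9.29, 9.52 and 8.78 at day 1 and at 8.20, 8.04 and 8.17 at day 2, and fell by 1.06 (SE 0.18, adjusted p = 0.00702). Acadvl, the first enzyme of mitochondrial oxidation of very long chains, fell by 0.91 (SE 0.20, adjusted p = 0.0170), and Eci1, an enoyl-CoA isomerase, by 0.73 (SE 0.17, adjusted p = 0.0229). Sham kidneys stepped the same way between the days, by -0.47 for Cyp4a14, -0.54 for Acadvl and -0.96 for Eci1 (adjusted p = 1.00 each, limma), and the sham step of Eci1, from 2.07 and 2.08 to 1.08 and 1.15, was the larger. All 3 kept their calls with the Xist term (0.00247, 0.00545 and 0.0253), under which 8 members fell, against 12 down and 2 up without S38L and S05L. Acadvl was lost without S18L or S30L (up to 0.0634) and Eci1 without S02L, S18L, S30L or S04L (up to 0.0772). The count was 3 without S02L and 1 without S18L or S30L. In the respiratory chain list 1 of 45 fell, Cox6c by 0.49 (SE 0.12, adjusted p = 0.0297), and in the citric acid cycle 0 of 20 changed (2 lower at an unadjusted p under 0.05).

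Fabp1, a fatty acid-binding protein of proximal tubule and liver, stood at 8.0, 7.42 and 8.19 at day 1 and at 5.71, 5.75 and 6.27 at day 2. It fell by 1.96 (SE 0.47, adjusted p = 0.0249), and the sham replicates showed the same step, from 8.26 and 8.60 to 6.29 and 6.45 (difference -2.06, adjusted p = 1.00, limma). Its adjusted p was 0.0725 with the Xist term and 0.184 without S38L and S05L, and up to 0.0905 without S18L, S05L or S30L. Alb, albumin, fell by 1.93 (SE 0.51, adjusted p = 0.0371) from 2.56, 3.94 and 3.45 to 1.36, 1.77 and 1.05, and Apob, apolipoprotein B, by 1.72 (SE 0.41, adjusted p = 0.0243) from 3.60, 4.45 and 3.82 to 2.31, 2.25 and 2.13. Both calls held with the Xist term (0.0204 and 0.00545) and were kept without S38L only (up to 0.123 and 0.0826 without S02L). These 3 genes prompted a list of 14 liver-enriched genes, drawn up after their values were seen, of which the same 3 fell and 0 rose, with a median of -0.24 and, with the Xist term, 2 that fell. Its median level was 3.62, 4.38 and 3.72 at day 1 and 3.01, 2.89 and 3.78 at day 2.

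Of 139 markers on 6 lists of nephron segments 6 passed (4.32%), against 6.68% of all genes. Of 59 proximal tubule genes 1 rose and 0 fell, of 14 thick limb genes 1 rose, of 15 distal tubule genes 1 fell, of 15 principal cell genes 1 rose, of 19 intercalated cell genes 0 changed (1 at an unadjusted p under 0.05), and of 17 podocyte genes 1 rose and 1 fell. The medians of these lists ran from -0.16 to 0.01. Slc7a8, an amino acid transporter of proximal tubule, rose by 0.66 (SE 0.16, adjusted p = 0.0244), from 4.67, 4.37 and 4.52 to 5.05, 5.48 and 5.01. Its call was lost with the Xist term (0.0733) and without S02L, S18L, S05L or S30L (up to 0.0994), and it was still 0.90 below sham at day 2 (adjusted p = 0.00335). Irx1, a transcription factor of nephron patterning on the thick limb list, rose by 0.73 (SE 0.13, adjusted p = 0.00839), from 0.77, 0.49 and 0.49 to 1.09, 1.51 and 1.33, and was called without each array. It lay 1.30 below sham at day 1 (adjusted p = 5.03e-05) and 0.61 below at day 2 (0.00984). S100g, the calcium-binding protein calbindin-D9k of distal tubule, fell by 1.15 (SE 0.24, adjusted p = 0.0140), from 9.43, 9.86 and 9.26 to 8.12, 8.24 and 8.73, and kept its call with the Xist term (0.00223) but not without S02L, S18L or S30L (up to 0.0672). The principal cell gene that rose was the transcription factor Gata3 (0.57, adjusted p = 0.0463). In the podocyte list the phospholipase A2 receptor Pla2r1 rose by 0.83 (adjusted p = 0.0192) and the slit diaphragm adaptor Cd2ap fell by 0.83 (adjusted p = 0.0191), neither of them called with the Xist term. The 3 Pla2r1 probes gave 1.43, 0.37 and 0.71, and none passed by itself (adjusted p = 0.248, 0.406 and 0.407, limma on single probes). Of 28 endothelial genes 0 changed (4 lower at an unadjusted p under 0.05), with a median of -0.19.

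Markers of neighbouring tissue were given a check of their own. Of 17 adipose genes 0 changed (0 at an unadjusted p under 0.05), and their median level was 1.52, 4.09 and 3.81 at day 1 and 3.93, 3.88 and 0.91 at day 2, with 1 low array on each day, S38L and S04L. Of 13 adrenal genes 0 changed (2 higher at an unadjusted p under 0.05), with median levels of -0.12 to 0.07 at day 1 and 0.10 to 1.06 at day 2. The sham day 1 replicate S06R stood apart on that list with 3.91, against -0.01 to 0.29 on the other sham replicates. Of 18 skeletal muscle genes 0 changed (1 higher at an unadjusted p under 0.05), and of 19 urothelium genes 1 fell, Krt20. Their part in the changes described was not tested.

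A few genes had a measured ratio on all 3 arrays of a day and on none of the other day, which leaves them without a fold. Of 19087 genes with a probe, 12 were of this kind at day 2 and 7 at day 1. At day 2 they included Zkscan16, a zinc finger factor (1.29, 0.62 and 1.40), Dydc2 (0.48, 1.19 and 0.78), Vstm2b (0.48, 0.41 and 1.30) and Piwil1, a protein of germ cells that binds small RNAs (0.36, 0.61 and 0.79). At day 1 they included Prss28, a serine protease (0.40, 1.35 and 0.47), Defb20, a beta-defensin (1.28, -0.09 and 0.72), Spag17 (-0.53, 0.25 and -0.05) and Kcnq3, a potassium channel (-1.10, -0.86 and -0.61). These levels are near the reference, and whether the spots without a value were dim could not be read from the ratios.

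Some of the genes that faded had higher means again at later days. Fos had means of -2.33 ± 0.26 (SD, n = 3) at day 1, -3.88 ± 0.28 at day 2, -2.57 ± 0.68 at day 5 and -2.32 ± 0.52 (n = 4) at day 9. Krt20 went from 3.90 ± 1.16 to 1.26 ± 0.33, 3.86 ± 0.95 and 2.23 ± 0.45, and Atf3 from 0.70 ± 0.83 to -0.995 ± 0.32, 0.11 ± 0.52 and -0.44 ± 0.08. Mki67 peaked at day 2 with -1.94 ± 0.39, after -4.53 ± 0.14 at day 1, and had -2.49 ± 0.61 and -2.93 ± 0.20 later. Col1a1 had its highest mean at day 9, going from -1.77 ± 0.44 and 0.33 ± 0.11 to 0.98 ± 0.67 and 1.98 ± 0.52. Differences from day 2 to the later days were not tested here, and the later groups mix Xist-high and Xist-low arrays.

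**Figure D5:**
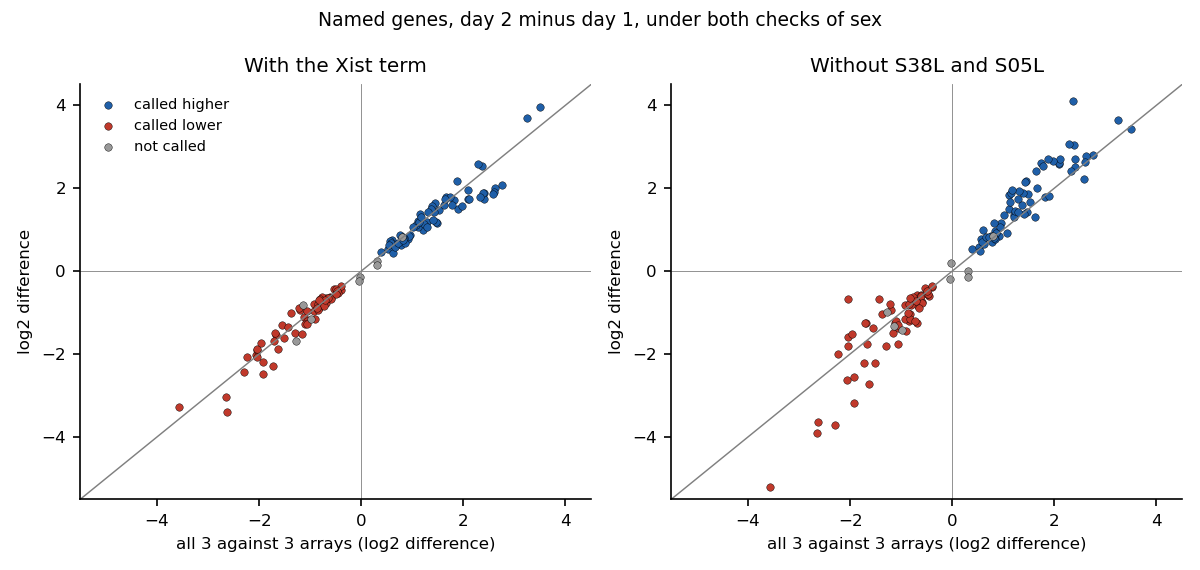
Difference between day 2 and day 1 (log2) of the named genes with all 3 against 3 arrays (horizontal axis) and with the Xist term (left, vertical axis) or without S38L and S05L (right, vertical axis). Each point is a gene, blue where called higher, red where called lower and grey where not called with all arrays, and the diagonal marks equal values. All called genes stay on their side of 0 in both panels. In the right panel this was fixed in advance for genes whose arrays of the days do not overlap.

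Of the 122 named genes that changed, 40 were called without each of the 6 arrays in turn, 18 of 64 that rose and 22 of 58 that fell, and none turned direction. Leaving out an array could not turn the direction of genes whose arrays of the days did not overlap. With the Xist term 73 of the 122 remained called, without S38L and S05L 90 did, and with the 6 arrays fitted alone 26 did. Some genes passed both without each of the 6 arrays in turn and with the Xist term. Among those that faded were Tnfrsf12a, Fgd3, Chac1, Txnrd1, Tuba1c and Tubb2a. Among those that rose were Xlr5a, Xlr5c, Epb42, Acta2, Cfp, H2-DMa and Trem2, and neither list is complete.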

How the data were processed

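RNA of whole kidneys was hybridised to 2-colour arrays, with kidney RNA in Cy5 and a common reference in Cy3, per the labels. The authors' deposited values were taken as log10 ratios of kidney over reference, a scale read from the values, which end at exactly 4. How they were made is not stated in the sources used here, and exact zeros were read as missing. Each array was centred near 0 as deposited; scale and centring are not stated, and the direction follows the dyes in the labels.

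Values were multiplied by 3.32 to give log2, and the median of each array was subtracted. Probes needed a value on at least 18 of 22 arrays and on at least 1 replicate of every group, and probes of a gene were averaged. Of the probes, 33653 had 1 gene symbol, 56 several and 11511 none. The arrays S03L and S03R were averaged as 1 replicate. limma 3.58.1 (R 4.3.3) was fitted to 8 group means over 21 replicates, with 1667 missing gene values left out, and p-values were adjusted by Benjamini-Hochberg over 17039 genes. The fit was tested on simulated data. Figures were drawn with matplotlib 3.10.9 (Python 3.11.15).

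The members and the 51 gene lists were chosen with earlier results of these data known, and lists were described by counts and medians. Named genes were the 12 largest rises and falls among called genes whose arrays did not overlap and had values on all 6 arrays, up to 4 called members of lowest p per list, and a set named whatever their result: Lcn2, Havcr1, Il6, Spp1, Fos, Egr1, Myc, Ccl2, Cxcl1, Cdk1, Mki67, Top2a, Cdkn1a, Col1a1, Acta2, Egf and Slc34a1 (Spp1 was not among the genes tested). Of genes measured on 1 day only, up to 6 a day could be named. Others were chosen after their values were seen (Plk1, Ccnb2, Ube2c, Btg2 and the few further members given to complete a count). Lists not described passed in at most 3 genes each. The number of arrays limits the precision, and signal over background was not analysed here. Alternatives covered scaling, missing values, filters, the arrays fitted, probe summary, array weights, left-out arrays and the image folder as a block.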

Additional observations from a re-analysis of the deposited data

Results flagged for a closer look

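Of the 122 named genes that changed, 10 separated the sham replicates by day in the direction opposite to the obstructed kidneys. With 2 replicates a day such a separation can arise by chance, and its share over all genes was not counted. The replicates of the days are different samples, and day and sex cannot be told apart in sham kidneys. In sham kidneys the log2 difference was -0.224 for Acta2, -0.774 for Msr1, -0.263 for Fbln2, -0.176 for Adam12, -0.298 for Tpm2, -0.220 for Tagln and -0.134 for Ltbp3, all of which rose in obstructed kidneys. It was 0.224 for Atf4, 0.157 for Ddx21 and 0.174 for Bhlhe40, which fell there. The difference between the 2 changes was tested in limma and did not pass for any of the 10, with adjusted p-values of 0.141 for Acta2 to 0.340 for Adam12.

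Probes without a single gene name also changed in obstructed kidneys. Of 7265 tested, 77 were higher and 110 lower at day 2, and 0 passed the same test in sham kidneys, which had 2 replicates a day.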

How the results depend on the processing

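All 122 named genes that changed kept their direction under every alternative in which they were tested. With arrays left out, this was fixed in advance for genes whose arrays of the days did not overlap. Of the 122, 117 remained called with no subtraction of array medians and 115 with quantile normalization. Those scalings gave 572 rises and 640 falls, and 574 rises and 723 falls, in place of 645 and 493, and moved the median of all genes from 0.02 to -0.02. Fitting only the 6 obstructed arrays gave 118 genes (104 higher, 14 lower), array weights 1968 (1084 and 884), and each probe by itself 1693 probes (897 and 796). A test against 2-fold change gave 0 higher and 0 lower genes in limma, with 102 at an unadjusted p under 0.05. Leaving out 1 obstructed array gave 291 to 1536 changed genes, 145 to 878 higher and 115 to 658 lower. With the Xist term 681 genes passed (352 higher), and without S38L and S05L 1742 (992 higher, 750 lower). In sham kidneys leaving out 1 replicate gave 0 to 57 genes. The test of the difference between obstructed and sham changes gave 1 gene with probes measured on all 22 arrays and 292 without S38L and S05L. The cause of these shifts was not tested.

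Among genes that did not pass, the sign turned for Slc34a1 (0.10 with quantile normalization, and -0.139 to 0.022 with 1 array left out, above 0 without S02L and S30L), Havcr1 (0.24 with array weights, 0.20 without S38L and S05L, and -0.220 to 0.322 with 1 array left out, above 0 without S38L and S04L) and Egf (-0.15 without S38L and S05L). No paired analysis was possible because the replicate names in the labels are not shared between the groups. Signal over background was not analysed here, and the number of arrays limits what could be detected. Without S38L and S05L 1 array carries day 1.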
